A study of Homo sapiens with 18 samples.

Results

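GDF15, IL24, IL1RL1, LCN2, CSF3, STC2 and VEGFA encode factors that stressed or inflamed cells send out, and they are followed here through the response of DU145 cells to GC7. They are 7 genes of the 15747 in the deposited table of cytoplasmic and polysomal RNA and of the 44682 in that of whole-cell RNA, found by their symbols, and both tables hold all 7. The set was chosen by these same deposited fold changes, since most of the genes stood high with GC7. Their fold changes between GC7 and vehicle are therefore a description, with no test of their own.

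DU145 is an established line from a metastatic prostate carcinoma. It was given 40 µM GC7 (N¹-guanyl-1,7-diaminheptane in the labels) or vehicle for 24 h, in 6 groups of 3 libraries: whole-cell GC7, whole-cell vehicle, cytoplasmic GC7, cytoplasmic vehicle, polysomal GC7 and polysomal vehicle. GC7 blocks deoxyhypusine synthase, which starts the conversion of a lysine of the translation factor eIF5A to hypusine, and the study asked how this alters both the amount of each mRNA and its loading with ribosomes. The labels' protocols give a 10 min exposure to emetine, which halts elongating ribosomes, before lysis, for both GC7 and vehicle cells. Whether libraries of a group are separate cultures is not stated, so p-values may reflect technical spread alone, and 1 cell line stands behind every value.

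Both tables hold the authors' comparisons and no value per library, so depth per library is unknown and neither single-library values nor an SD can be given. Neither table says which group is the numerator. The authors' label "UP" was read as higher with GC7. In the whole-cell table the sign was turned, because all 171 other genes with an adjusted p under 0.05 in polysomes and an unadjusted p under 0.05 in whole cells carried opposite signs in the 2 authors' deposited tables. Every direction below rests on this reading. In bulk RNA, more cells that hold an mRNA and more of it per cell cannot be told apart.

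Of the line's expected markers, 5 of 6 epithelial genes (KRT8, KRT18, KRT19, EPCAM and CDH1) were in the fraction table and KRT5 was not. KRT18 had a mean normalized count of 41006 in cytoplasm by the authors' deposited table. KLK2, KLK3 and TMPRSS2, genes of androgen-responsive prostate epithelium, carried the whole-cell value of genes without reads. None of 3 endothelial or 3 fibroblast markers, and 1 of 5 leukocyte markers (CD14, whose mean normalized count by the authors' deposited table was 49.4 in cytoplasm and 33.1 in polysomes), was in the fraction table.

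As background, GDF15 is a distant member of the TGF-β superfamily that is released by stressed cells and acts on the hindbrain through GFRAL and RET. IL24 is an IL-10 family cytokine. IL1RL1, also called ST2, is the receptor of the alarmin IL-33 and is made both as a membrane protein and as a secreted decoy, 2 forms that a table per gene does not separate. LCN2 (lipocalin 2) binds bacterial siderophores and so withholds iron, CSF3 (G-CSF) drives the production of neutrophils, STC2 (stanniocalcin 2) blocks the protease PAPPA, and VEGFA is the main growth factor of blood vessels. The integrated stress response, in which phosphorylated eIF2 favours translation of the transcription factor ATF4, is a known inducer of GDF15, STC2 and VEGFA, and NF-κB is a known inducer of LCN2 and CSF3.

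The promoters of GDF15, LCN2 and IL1RL1 are shown because they are the ones among the members that hold any of 6 motifs searched. RefSeq promoters on GRCh38.p14, from 250 bases before to 50 after the start, were matched for 5 of the 7 genes, as 6 promoters, since IL1RL1 has a distal and a proximal one. CSF3 and VEGFA had none in the table used. Motifs were searched on both strands and are in capitals.
GDF15, chr19:18385908-18386207, plus strand: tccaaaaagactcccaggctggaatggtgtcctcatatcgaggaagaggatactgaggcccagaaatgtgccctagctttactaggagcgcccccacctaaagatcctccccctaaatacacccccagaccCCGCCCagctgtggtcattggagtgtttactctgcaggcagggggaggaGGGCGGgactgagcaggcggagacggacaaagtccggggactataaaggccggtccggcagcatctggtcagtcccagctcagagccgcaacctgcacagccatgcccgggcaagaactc
LCN2, chr9:128149203-128149502, plus strand: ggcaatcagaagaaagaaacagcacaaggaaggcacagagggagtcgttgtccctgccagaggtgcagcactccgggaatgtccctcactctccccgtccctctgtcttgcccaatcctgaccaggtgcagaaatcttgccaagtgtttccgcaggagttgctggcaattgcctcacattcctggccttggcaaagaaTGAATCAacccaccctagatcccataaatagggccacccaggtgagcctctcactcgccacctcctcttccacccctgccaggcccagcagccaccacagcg
IL1RL1 proximal, chr2:102337007-102337306, plus strand: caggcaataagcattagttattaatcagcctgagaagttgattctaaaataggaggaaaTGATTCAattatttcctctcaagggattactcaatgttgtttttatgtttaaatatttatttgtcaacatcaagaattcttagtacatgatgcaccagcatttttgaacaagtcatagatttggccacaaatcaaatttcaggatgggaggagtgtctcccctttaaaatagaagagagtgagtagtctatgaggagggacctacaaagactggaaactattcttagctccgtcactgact
The capitals in GDF15 mark 2 GC boxes (GGGCGG, bound by SP1), at -119 to -114 on the minus strand and at -70 to -65 on the plus strand, counted from the start. In LCN2 they mark an AP-1 motif (TGANTCA, read alike on both strands) at -52 to -46, and in IL1RL1 the same motif at -191 to -185. GC boxes stood in 45% of all 35116 promoters of this length and AP-1 motifs in 7.7%, against 1 and 2 of these 6. No match was found in the 6 windows for the core of the element shared by C/EBP and ATF factors (TGATGNAA, in 3.6% of all promoters), the NF-κB motif (GGGA, any base, TTTCC; 0.6%), the hypoxia core ACGTG (21.4%) or the ER stress element (CCAAT, 9 bases of any kind, CCACG; 0.1%). None of these motifs overlapped another. Each motif was searched as an exact string, so a site that departs from it by a base was not counted. The LCN2 promoter holds gggaatgtcc, which departs from the NF-κB string in that way. The search therefore does not show that a promoter lacks sites for a factor. The promoters of IL24, STC2 and the distal start of IL1RL1 held no match at all, and their GC content was 52%, 64% and 35%, where the median of all promoters was 58.7%.

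In cytoplasm the set ran over a wide range, with GDF15 highest and VEGFA lowest. The implied level of GDF15 (GRCh38 chromosome 19, bases 18374731 to 18389176), that is its mean normalized count split between the groups by the unshrunken fold change, was 245 with GC7 and 19.99 with vehicle. For the 3 libraries of each group, the authors' deposited table lists its log2 fold change as 3.56 ± 0.31 (SE), rank 2 of all genes. IL24 (chromosome 1, bases 206897443 to 206904139) had an implied level of 221 with GC7 and 24.4 with vehicle, and the authors' deposited table puts it at 3.09 ± 0.39 (SE), rank 5. Both were rare mRNAs in vehicle cells. With GC7 they still lay under 400.5, the median over all genes of the mean normalized count in cytoplasm. Their means over both groups lay at the 29.9 and 28.8 percentile of all genes in cytoplasm.

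IL1RL1 (chromosome 2, bases 102311502 to 102352037) had an implied level of 703 with GC7 and 113 with vehicle, and the authors' deposited table lists 2.57 ± 0.31 (SE) for it. LCN2 (chromosome 9, bases 128149071 to 128153453) and CSF3 (chromosome 17, bases 40015361 to 40017813) had nearly equal values, 1.93 ± 0.25 and 1.92 ± 0.34 (SE) by the authors' deposited table. Their abundance was far apart. LCN2 had an implied level of 5518 with GC7 and 1389 with vehicle, and CSF3 one of 189 with GC7 and 46.1 with vehicle. STC2 (chromosome 5, bases 173314723 to 173328447), the most abundant of the set by counts, had an implied level of 7581 with GC7 and 3071 with vehicle, and its entry of the authors' deposited table is 1.26 ± 0.17 (SE).

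VEGFA (chromosome 6, bases 43770184 to 43786487) was the exception, with an implied level of 2939 with GC7 and 1881 with vehicle. For cytoplasm the authors' deposited table has it at 0.18 ± 0.27 (SE; adjusted p = 0.417). Deposited values of the fractions are shrunken towards 0, and that of VEGFA moved the most when this was undone, to 0.64 (SE 0.38, 95% interval -0.09 to 1.38). A doubling lies inside that interval, and so does no difference. For the other 6 genes the unshrunken value differed from the deposited one by less than its SE in either fraction. At an adjusted p under 0.05 the authors' deposited table has 6 of the 7 higher in cytoplasm. Of all genes 4.24% passed, 2.29% as higher and 1.95% as lower. With a log2 fold change over 1 also asked for, the 6 remained and 0.756% of all genes were higher by the authors' deposited table. These counts were already set by the choice of the genes.

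On heavy polysomes, where mRNAs carry many ribosomes, the order by deposited fold change was the same. GDF15, with an implied level of 335 with GC7 and 19.5 with vehicle, tops all 15747 genes of the authors' deposited table for polysomes at 4.06 ± 0.30 (SE; adjusted p = 3.87e-38). IL24 had an implied level of 399 with GC7 and 51.7 with vehicle, IL1RL1 one of 880 with GC7 and 134 with vehicle, and LCN2 one of 5866 with GC7 and 1186 with vehicle. For these 3 the authors' deposited table lists 2.90 ± 0.27, 2.67 ± 0.25 and 2.28 ± 0.17 (SE). CSF3 had an implied level of 363 with GC7 and 102 with vehicle, and STC2 one of 12076 with GC7 and 3463 with vehicle. They lay close together in fold change, at 1.78 ± 0.22 and 1.77 ± 0.18 (SE) by the authors' deposited table. VEGFA had an implied level of 6376 with GC7 and 4692 with vehicle. Its polysomal value, 0.36 ± 0.16 (SE; adjusted p = 0.0396 by the authors' deposited table), was too small for the authors' category, which also asks for a log2 fold change over 1. On polysomes the authors' deposited table thus has all 7 higher at an adjusted p under 0.05, and 6 with a log2 fold change over 1 as well. The first criterion was met by 11.1% of all genes, 5.61% as higher and 5.48% as lower, and the second by 1.05% as higher. Here too the choice of the genes had set the counts.

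**Figure D1:**
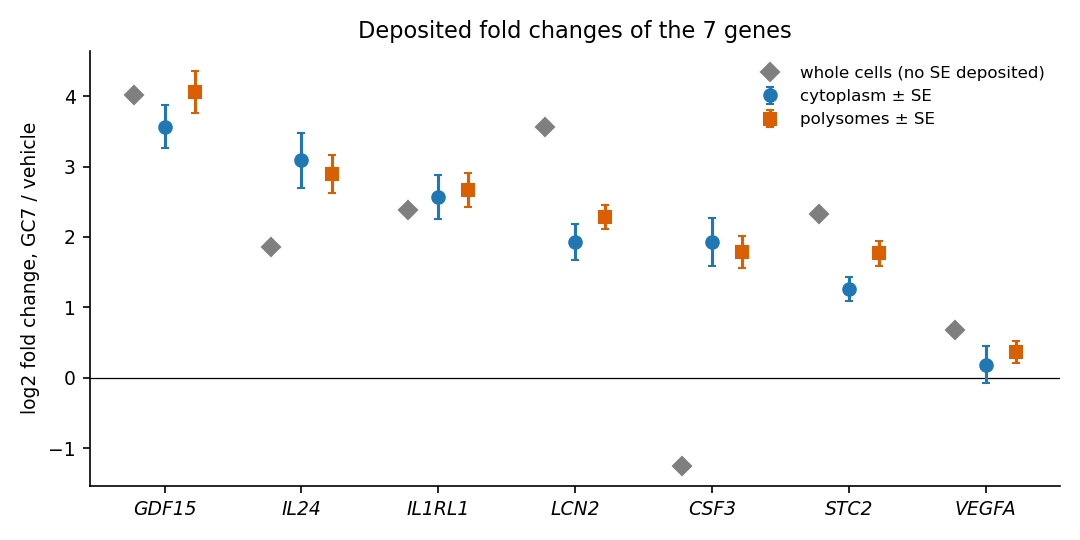
Log2 fold change between GC7 and vehicle (vertical axis) of the 7 genes in whole cells (diamonds, without SE), cytoplasm (circles) and polysomes (squares); bars are the deposited SE. GDF15 is near 4 in all 3, VEGFA is under 1 in all 3, and CSF3 is at -1.25 in whole cells and near 1.8 to 1.9 in the fractions.

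Whole cells gave the same direction for 6 of the 7 genes. With the sign turned, the authors' deposited table lists GDF15 at 4.01 (unadjusted p = 0.0011), LCN2 at 3.56 (6.73e-05), STC2 at 2.32 (0.000442) and IL24 at 1.86 (0.00898). These 4 were higher at an unadjusted p under 0.05, a threshold that 2.99% of all genes passed, 1.66% as higher and 1.33% as lower. Of the 44682 genes 18021 carried the value of genes without reads, so the share among the other genes was higher. The same holds for every whole-cell share below, and the adjustment that follows counts those genes too. No gene passed after Benjamini-Hochberg adjustment over the 44682 p-values of the authors' deposited table (1336 did unadjusted, and the smallest adjusted p was 0.642). IL1RL1 had a larger value than STC2 and IL24, 2.38, with an unadjusted p of 0.147 by the authors' deposited table. VEGFA is given there at 0.68 (unadjusted p = 0.275, the authors' deposited table).

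CSF3 was the gene that lay on the other side: for whole cells the authors' deposited table lists it at -1.25 (unadjusted p = 0.336). In the fractions it was above 1.7, and the authors' deposited table lists adjusted p-values of 2.97e-07 for cytoplasm and 5.02e-14 for polysomes. The whole-cell values used here come without an SE, so the gap between whole cells and fractions was not tested. Sizes in whole cells and in fractions are not comparable, since it is not known whether the whole-cell values are shrunken.

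Abundance per length ordered the mRNAs differently from fold change. Per kilobase of the canonical GENCODE transcript, implied levels in polysomes with GC7 were 7153 for LCN2, 2839 for STC2, 1767 for VEGFA, 441 for IL1RL1, 279 for GDF15, 242 for CSF3 and 202 for IL24. With vehicle the order in polysomes was LCN2 (1446), VEGFA (1300), STC2 (814), CSF3 (67.6), IL1RL1 (67.3), IL24 (26.2) and GDF15 (16.2). GDF15 was thus last of the 7 with vehicle and the fifth with GC7, and STC2 and VEGFA changed places. Cytoplasm showed LCN2 at 6730, STC2 at 1782, VEGFA at 814, IL1RL1 at 352, GDF15 at 204, CSF3 at 126 and IL24 at 112 per kilobase with GC7. With vehicle the cytoplasmic levels per kilobase were 1694 for LCN2, 722 for STC2, 521 for VEGFA, 56.5 for IL1RL1, 30.7 for CSF3, 16.7 for GDF15 and 12.3 for IL24. Without values per library it cannot be said which neighbours in these orders differ beyond their spread.

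**Figure D2:**
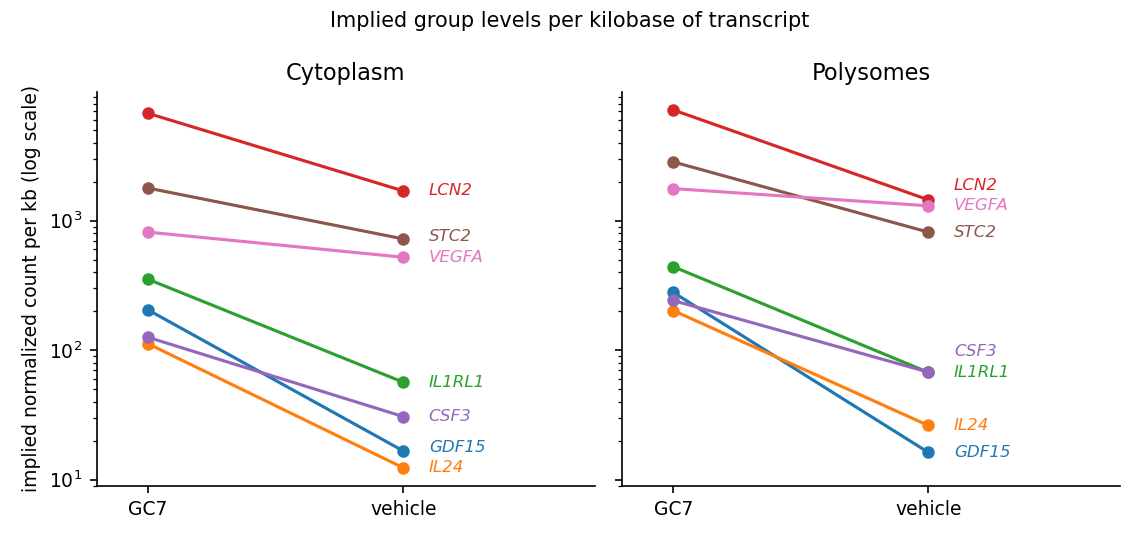
Implied normalized count per kilobase of transcript (vertical axis, log scale) with GC7 (left) and vehicle (right) in cytoplasm and polysomes; each line is 1 gene. LCN2 is highest throughout, the line of VEGFA is the flattest, and that of GDF15 is the steepest, at 279 with GC7 and 16.2 with vehicle in polysomes.

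The response on polysomes and that in cytoplasm were set against each other with unshrunken values, as polysomal minus cytoplasmic log2 fold change. For STC2 the difference was 0.50 (SE 0.25, 95% interval 0.01 to 0.98), and for GDF15 it was 0.49 (SE 0.43, interval -0.35 to 1.33). LCN2 had 0.32 (interval -0.27 to 0.91), IL1RL1 0.07 (interval -0.70 to 0.84), CSF3 -0.20 (interval -0.98 to 0.59), VEGFA -0.20 (interval -0.996 to 0.59) and IL24 -0.23 (interval -1.15 to 0.69). The intervals of 6 of the 7 included 0, with bounds as far out as -1.15 and 1.33, so these data do not show that the fractions responded alike. Over all 15669 genes the normal test of this difference called 0 after Benjamini-Hochberg adjustment and 335 at an unadjusted p under 0.05, 2.14% of genes. Errors of the 2 fractions were taken as independent. With a correlation of 0.5 the test called 20 genes and none of the 7, whose smallest adjusted p was 0.307, for STC2.

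**Figure D3:**
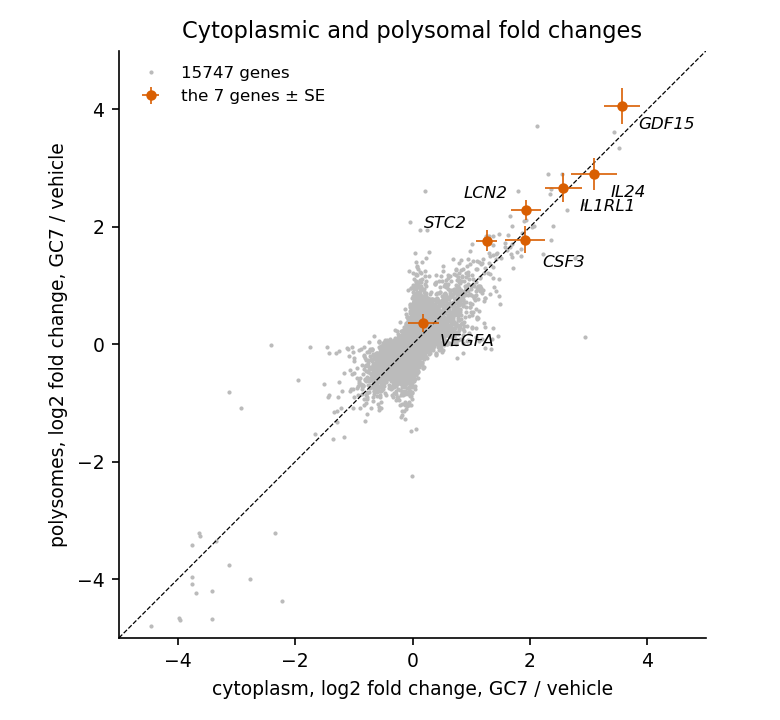
Deposited log2 fold change between GC7 and vehicle in cytoplasm (horizontal axis) and in polysomes (vertical axis) for all 15747 genes (grey) and the 7 genes (orange, bars are SE); the dashed line marks equal values. GDF15 lies at 3.56 and 4.06, and VEGFA lies within the cloud at 0.18 and 0.36.

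Loading on polysomes over both treatments was not used to choose the genes. The ratio of polysomal to cytoplasmic mean normalized count was taken relative to the median gene, on a log2 scale. It was highest for VEGFA at 0.70 (92.5 percentile of 15747 genes), followed by CSF3 at 0.48 (84.5 percentile) and IL24 at 0.38 (78.7 percentile). STC2 at 0.04, GDF15 at -0.08 and IL1RL1 at -0.19 lay near the median gene, and LCN2, at -0.47, lay at the 19 percentile. Split by treatment with the unshrunken fold changes, the ratio of GDF15 was -0.05 with GC7 and -0.54 with vehicle, and that of STC2 was 0.17 with GC7 and -0.33 with vehicle. LCN2 (-0.41 with GC7 and -0.73 with vehicle) and IL1RL1 (-0.18 and -0.25) went the same way. IL24 (0.35 with GC7 and 0.58 with vehicle), CSF3 (0.44 and 0.64) and VEGFA (0.62 and 0.82) went the other way. By construction the gap between treatments is the polysomal minus cytoplasmic difference given above, not a second observation. The ratios themselves have no replicate value and no test.

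**Figure D4:**
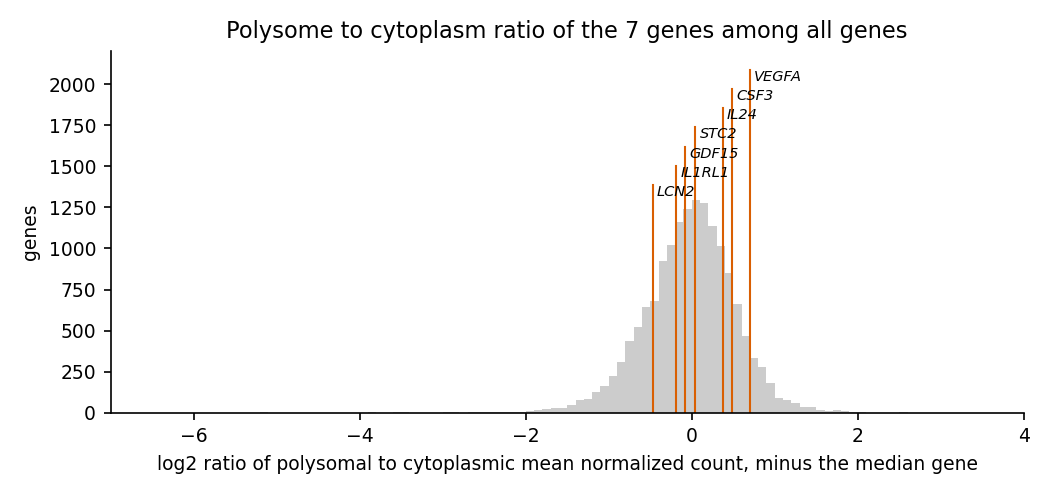
Distribution over 15747 genes of the log2 ratio of polysomal to cytoplasmic mean normalized count, minus the median gene (horizontal axis), with the number of genes per bin (vertical axis); lines mark the 7 genes. LCN2 at -0.47 is leftmost and VEGFA at 0.70 is rightmost.

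Coding regions were shorter than the median for 6 of the 7. Among the canonical GENCODE transcripts of 12901 coding genes in the fraction table, the coding length of GDF15 was 924 bases, of IL24 618, of IL1RL1 1668, of LCN2 594, of CSF3 612, of STC2 906 and of VEGFA 1185, where the median was 1398. Repeats of ATTTA in the 3′ UTR, a feature of cytokine mRNAs that decay fast, were dense in some of them. GDF15 had 5 in 241 bases (99.9 percentile per kilobase), CSF3 7 in 854 (98.2 percentile), VEGFA 10 in 1925 (92.2 percentile) and STC2 13 in 3124 (86.2 percentile). IL24 had 3 in 1080, and LCN2 and IL1RL1 had none in 150 and 116 bases. By count alone GDF15, CSF3, VEGFA and STC2 stood at the 69.9, 78.3, 86.4 and 91.3 percentile. The density of GDF15 comes with a short 3′ UTR, at the 11.7 percentile of length. Of all 12901 transcripts 71.8% had at least 1 such repeat and 32.6% had 5 or more. The following 27 bases of the GDF15 transcript, from base 111 to 137 of its 3′ UTR, are shown as an example, with 2 repeats in capitals.
GDF15 3′ UTR: tgtATTTAtataagtctgttATTTAtt
An ATG upstream of the coding start, as in mRNAs whose translation is held back by short upstream frames, was present in IL24 (5), IL1RL1 (3) and STC2 (1), absent in the other 4 genes, and present in 40.5% of all transcripts. Coding lengths and upstream ATGs were counted from the coding start annotated in 1 transcript per gene, and another start could change them.

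Receptors and partners of the 7 factors were examined as a list of 18 genes, of which 9 were in the fraction table. This list and those below were drawn up with earlier results of these data known, so their counts are a description. In cytoplasm 2 of the 9 rose and in polysomes 3 rose, and none fell, by the adjusted p-values of the authors' deposited table, where 2.29% of all genes rose in cytoplasm and 5.61% in polysomes. The list's median log2 fold change was 0.07 in cytoplasm and 0.03 in polysomes, where that of all genes was 0.00 in both. IL20RB, the chain common to both receptors of IL24, was the one with the smallest p-values. Its implied level in polysomes was 1700 with GC7 and 610 with vehicle. The authors' deposited table lists it at 1.20 ± 0.25 (SE; adjusted p = 2.41e-05) for cytoplasm and 1.45 ± 0.14 (SE; adjusted p = 3.27e-22) for polysomes. For whole cells the authors' deposited table has 2.16 (unadjusted p = 0.000804). The chains that pair with it were not called in the fractions. IL22RA1 is listed at -0.23 for cytoplasm, -0.31 for polysomes and -1.29 for whole cells (unadjusted p = 0.014) by the authors' deposited table. IL20RA was scarce, with a mean normalized count of 12.3 for cytoplasm by the authors' deposited table.

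PAPPA2, a relative of the protease that STC2 inhibits, rose in both fractions, with an implied level in polysomes of 99.9 with GC7 and 44.8 with vehicle. The authors' deposited table lists it at 1.05 ± 0.42 (SE; adjusted p = 0.0194) for cytoplasm, 1.00 ± 0.32 (SE; adjusted p = 0.00257) for polysomes and 2.66 (unadjusted p = 0.00109) for whole cells. PAPPA itself was in the whole-cell table alone, where the authors' deposited table has it at 1.03 (unadjusted p = 0.492). NRP1, a co-receptor of VEGFA, rose in polysomes, where its implied level was 1209 with GC7 and 680 with vehicle. Its entries of the authors' deposited table are 0.08 ± 0.18 (SE) for cytoplasm and 0.74 ± 0.20 (SE; adjusted p = 0.000838) for polysomes. The difference between the fractions was called for no gene, NRP1 included. The remaining partners had small values by the authors' deposited table: IL1RAP, the co-receptor of IL1RL1, was at 0.07 for cytoplasm and 0.06 for polysomes, the LCN2 receptor SLC22A17 at -0.22 and -0.15, and NRP2 at 0.07 and 0.03. STC1, which the list also holds, is a relative of STC2 and not a receptor, and was at -0.29 and -0.18 by the authors' deposited table. GFRAL, the receptor of GDF15, and IL33, the ligand of IL1RL1, carried the whole-cell value of genes without reads. RET, LRP2, MMP9, CSF3R, KDR and FLT1 were in the whole-cell table alone, with unadjusted p-values between 0.0686 (KDR) and 0.958 (RET) by the authors' deposited table. Of the 18 genes 2 (IL20RB and PAPPA2) were higher and 1 (IL22RA1) lower in whole cells at an unadjusted p under 0.05. Of all genes 1.66% were higher and 1.33% lower there.

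Relatives of the 7 factors formed a list of 39 genes, of which 18 were in the fraction table. None rose and 1 fell in each fraction by the adjusted p-values of the authors' deposited table, where 1.95% of all genes fell in cytoplasm and 5.48% in polysomes. A single call among 18 says little either way. The list's medians were -0.03 in cytoplasm and -0.01 in polysomes. BMP4, a ligand of the TGF-β superfamily like GDF15, was the gene that fell. The authors' deposited table lists it at -0.67 ± 0.22 (SE; adjusted p = 0.0079) for cytoplasm and -0.97 ± 0.16 (SE; adjusted p = 2.29e-08) for polysomes. VEGFB, VEGFC and PGF, relatives of VEGFA, lay between -0.29 and 0.12 in the fractions, without a call, by the authors' deposited table. In whole cells 2 of the 39 relatives were higher and 1 was lower at an unadjusted p under 0.05, where 1.66% of all genes were higher and 1.33% lower, and they are named for this after their values were seen. INHBE, a TGF-β superfamily gene that stressed cells induce, and IL1R2, a decoy receptor of IL-1, had 2.35 (unadjusted p = 0.0431) and 1.94 (unadjusted p = 0.0283) by the authors' deposited table. CSF2, the colony-stimulating factor of granulocytes and macrophages, had -0.998 (unadjusted p = 0.0261) for whole cells, with -0.18 and -0.19 for cytoplasm and polysomes, by the authors' deposited table.

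Of 33 other secreted factors known from stressed or inflamed cells, 28 were in the fraction table. In cytoplasm 11 of these rose and none fell, and in polysomes 11 rose and none fell, by the adjusted p-values of the authors' deposited table. Of all genes 2.29% rose in cytoplasm and 5.61% in polysomes. The list was drawn up with earlier results of these data known, so the counts are a description and no test. Among genes with a mean normalized count of at least 100, with p-values adjusted anew, 23 of the list remained in each fraction. Of these 8 rose and none fell in cytoplasm, and 7 rose and 1 fell in polysomes. Among all genes under the same rule, 303 of 11659 rose and 316 fell in cytoplasm. In polysomes 790 of 12336 rose and 892 fell. The medians of the 28 were 0.17 in cytoplasm and 0.31 in polysomes. FGF21, a stress hormone of liver and muscle, had the highest value at a low level, an implied 28.5 with GC7 and 3.59 with vehicle in polysomes. The authors' deposited table lists it at 2.36 ± 0.77 (SE) for cytoplasm and 2.64 ± 0.73 (SE) for polysomes. IL6, an inflammatory cytokine, rose in both fractions, at 1.14 ± 0.18 and 0.57 ± 0.14 (SE) by the authors' deposited table. For the chemokine CXCL3 the authors' deposited table gives 1.24 ± 0.23 and 0.79 ± 0.17 (SE), and for the EGF receptor ligand HBEGF 0.77 ± 0.14 and 0.53 ± 0.16 (SE), all called. IL1A, an alarmin of the IL-1 family, had an implied level of 44.2 with GC7 and 10.4 with vehicle in polysomes and rose in both fractions, by 1.25 ± 0.64 and 1.85 ± 0.50 (SE) by the authors' deposited table. ADM2, a peptide of the calcitonin family, was not called for cytoplasm at 0.32 ± 0.18 (SE) and rose in polysomes at 0.68 ± 0.17 (SE) by the authors' deposited table. In whole cells 2 of the 33 were higher at an unadjusted p under 0.05, and the authors' deposited table lists them at 2.704 (ADM2, unadjusted p = 0.00253) and 1.80 (FGF21, unadjusted p = 0.0282). The share of all genes higher in whole cells at this threshold was 1.66%.

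**Figure D5:**
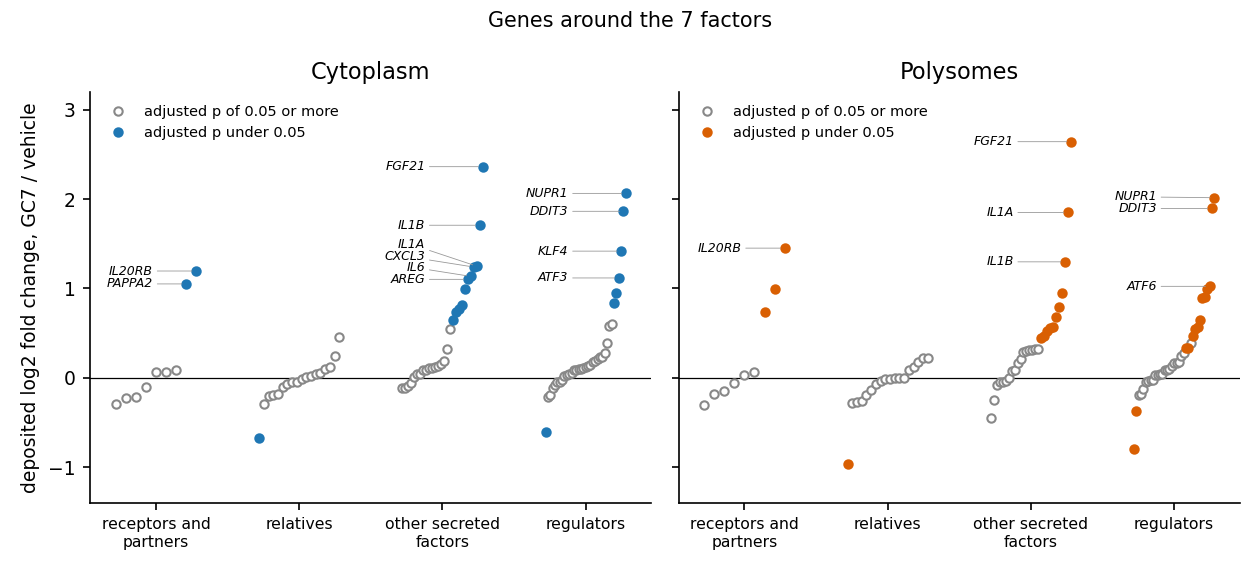
Deposited log2 fold change between GC7 and vehicle (vertical axis) of the genes of 4 lists in cytoplasm and polysomes; each point is 1 gene, sorted within its list, and filled points have an adjusted p under 0.05. Among other secreted factors 11 of 28 are filled in each fraction and all of these are above 0; names are given for filled points above 1.

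Regulators with a known link to these genes were all in the fraction table, 35 in number. In cytoplasm 6 rose and 1 fell, and in polysomes 12 rose and 2 fell, by the adjusted p-values of the authors' deposited table. Of all genes 4.24% were called in cytoplasm and 11.1% in polysomes, in either direction. Their medians were 0.12 in cytoplasm and 0.16 in polysomes. DDIT3 (CHOP), a stress-induced partner of C/EBP factors, and NUPR1, a stress-induced nuclear protein, rose most. The authors' deposited table lists DDIT3 at 1.86 ± 0.20 for cytoplasm and 1.90 ± 0.18 for polysomes, and NUPR1 at 2.06 ± 0.29 and 2.02 ± 0.22 (SE). CEBPG, a partner of ATF4, rose by 0.84 ± 0.16 and 0.90 ± 0.13 (SE), and ATF3, a target of ATF4, by 1.12 ± 0.22 and 0.99 ± 0.18 (SE), by the authors' deposited table. The ER stress sensor ATF6 rose by 0.95 ± 0.42 and 1.02 ± 0.20 (SE), and the transcription factor KLF4 by 1.42 ± 0.62 and 0.90 ± 0.19 (SE), by the authors' deposited table. ATF4 itself, an abundant mRNA, had an implied level of 33847 with GC7 and 45800 with vehicle in polysomes. The authors' deposited table lists it at -0.21 ± 0.23 for cytoplasm, not called, and -0.37 ± 0.14 (SE; adjusted p = 0.02) for polysomes, where it fell. For whole cells the authors' deposited table has ATF4 on the other side, at 0.86 (unadjusted p = 0.118). ATF5 fell in both fractions, at -0.61 ± 0.22 and -0.80 ± 0.17 (SE) by the authors' deposited table. NFKBIZ, the IκB protein needed for Lcn2 induction in mouse cells, was not called in cytoplasm, at 0.17 ± 0.26, and rose in polysomes, at 0.55 ± 0.17 (SE), by the authors' deposited table. ATF4, ATF5 and NFKBIZ were singled out after their values were seen. In whole cells DDIT3, ATF3, CEBPG, KLF4, NUPR1 and FOSB, 6 of the 35, had an unadjusted p under 0.05, all of them higher, by the authors' deposited table. Of all genes 1.66% were higher and 1.33% lower in whole cells at this threshold.

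Genes with fold changes most like those of GDF15 and IL24 were sought in both fractions. Among 11549 genes with a mean normalized count of at least 100 in both fractions, the nearest to GDF15 over the 2 deposited fold changes was IL24, at a distance of 1.26 log2 units, and the nearest outside the set was CLGN at 1.94, followed by NUPR1 at 2.54, an unnamed clone gene, the small GTPase RAB39B at 2.58 and the collagenase MMP1 at 2.67. For IL24 the nearest was IL1RL1 at 0.57, and outside the set CLGN at 0.81, NUPR1 at 1.35, the same clone gene, RAB39B at 1.44 and DDIT3 at 1.58. CLGN, a chaperone of the endoplasmic reticulum, is listed at 2.35 ± 0.43 for cytoplasm and 2.55 ± 0.22 (SE) for polysomes by the authors' deposited table. The minimum decides which genes are named: GDF15 and IL24 both passed it through their levels with GC7. With vehicle both had implied levels under 100 in each fraction. With no minimum, an alternative added after the values were seen, the nearest to GDF15 outside the set were OLAH at 0.47, KLHDC7B at 0.72 and ALOX5AP at 0.78, all nearer than IL24. Mean normalized counts in cytoplasm by the authors' deposited table were 12.6 for OLAH, 89.3 for KLHDC7B and 12.1 for ALOX5AP. For IL24 the nearest outside the set were then SPX at 0.53, PYY at 0.54 and KLHDC7B at 0.62. A likeness over 2 comparisons describes position only.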

How the data were processed

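RNA of DU145 cells with GC7 or vehicle was compared in whole cells, cytoplasm and heavy polysomes. Reads were aligned to GRCh38 with STAR 2.7.8a, per the labels' protocols, and Salmon 1.4.0 is named in the submitters' processing notes without its role. Per the file headers, the deposited tables hold log2 fold changes, an SE (a score column here), p-values and, for the fractions, a mean normalized count over all libraries of a fraction, averaged by the authors. The whole-cell base was read as log2: the step for 1 read in 1 library was 0.5283, which is log2(3)/3. Genes without reads share a value of -0.07 with the sign turned, as 18021 genes do (within 0.00015).

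The members and lists were chosen with earlier results of these data known. Transcript features and levels per kilobase were added after the values were seen. Deposited fold changes of the fractions are smaller than their p-values imply. Shrinkage with a Cauchy prior (natural log units, scale 0.195 for cytoplasm and 0.205 for polysomes) was therefore assumed and undone by solving for the estimate and SE that give the deposited values. For 97.4% of genes in cytoplasm and 99.5% in polysomes the resulting z matched the p-value's z to within 0.1. The difference between fractions leaves out 78 genes that missed by 0.5 or more. Implied levels split the mean normalized count into groups of 3 libraries by the unshrunken fold change. Calls are the authors' adjusted p under 0.05, or the unadjusted p under 0.05 in whole cells. The scripts (Python 3.11.15, scipy 1.17.1) were tested on simulated data. Named genes are the 7 members, partners, up to 6 called genes a list by smallest p, and the 5 genes nearest to GDF15 and to IL24; other named genes are marked as chosen later, or are given as relatives. Sequences are from RefSeq (GRCh38.p14), transcripts from GENCODE. Protein sequences were not used here. No column of per-sample values was used, and read counts could not be tested. One marker gene is not reported here.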

Additional observations from a re-analysis of the deposited data

How the results depend on the processing

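When shrinkage was undone, fold changes of the 7 genes in the fractions moved by less than their SE, except that of VEGFA in cytoplasm, at 0.18 deposited and 0.64 unshrunken. Over the 4 lists together, 21 of 90 genes were called in cytoplasm and 29 in polysomes, where 4.24% and 11.1% of all 15747 genes were called. With a log2 fold change over 1 also required the counts of the lists were 12 and 7, and the stricter rule lowers counts by its construction. Among all 15747 genes it left 166 in cytoplasm and 214 in polysomes. An adjusted p under 0.01, or genes with a mean normalized count of at least 100 alone, left both counts of the lists within 1.5 times. In whole cells 14 of 125 genes had an unadjusted p under 0.05 and 7 had one under 0.01, as did 1336 and 337 of all 44682 genes. The difference between fractions gave 0 calls with independent errors, 20 with errors correlated at 0.5 and 1 with deposited fold changes; which correlation holds was not tested. In a shorter promoter window the AP-1 motif was found in 1 of the 6 promoters instead of 2. Without a minimum on the mean normalized count, added after the data were seen, the distance to the nearest gene outside the set was 0.47 in place of 1.94 for GDF15 and 0.53 in place of 0.81 for IL24. No paired analysis was possible because the tables hold no value per library, and no library could be left out for the same reason. Depth per library is unknown, and low levels with vehicle, such as 19.5 normalized counts for GDF15 in polysomes and 24.4 for IL24 in cytoplasm, limit how well the largest fold changes are known.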
